A study of Saccharomyces cerevisiae with 4 samples.

Results

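Two-colour arrays of sporulating budding yeast were compared just after and just before a change of medium. Cells harvested immediately after transfer to YPD (YPD 0 min) were set against cells of the same culture after 5.5 h in sporulation medium (SPM), across all 6218 ORFs of the array. The comparison used 2 of the 4 arrays of the series, 1 for each group. The other 2 arrays held cells at 20 and 40 min in YPD and are quoted only to place the 0 min values. All 4 groups came from the SK1 diploid GF18, in which the promoter of SPS4 drives an HA-tagged NDT80, so no sample here was wild type. GF18 was made by mating a transformed haploid with strain NE30. Whether GF18 also kept a copy of NDT80 under its own promoter is not stated. The culture was grown in YPD and then in YPA, an acetate-containing growth medium, before it entered SPM, which holds potassium acetate and a little raffinose. For transfer, cells were centrifuged and resuspended in YPD, which contains glucose, yeast extract and peptone. No array held cells handled in this way and returned to SPM, so the medium, the handling and the time that these took cannot be told apart. The Cy3 channel of each array carried RNA of the wild-type SK1 diploid NKY1551 grown in YPA, and all levels below are log2 ratios to that reference.

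In yeast, glucose and rich nitrogen sources raise the activity of protein kinase A and TORC1, which switch on the genes for ribosomal proteins and for ribosome assembly in the nucleolus. Glucose also silences genes for growth on acetate, such as those of the glyoxylate cycle and gluconeogenesis, and shortens the life of some of their mRNAs. Entry into meiosis needs the opposite conditions, under which Ime1 activates early meiotic genes and Ndt80 later activates the middle genes of the divisions and the spore.

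The median background-subtracted Cy5 intensity of the gene spots was 922 on the YPD 0 min array and 1427 on the SPM array, and 54.8% and 54.4% of genes were above background in that channel. A gene was taken as above background where at least 1 of its spots was brighter than 95% of the buffer spots. Each ORF lies in 2 adjacent spots, and the errors given are the SD of these spots, which leaves out any error the spots share. With 1 array a group no test could be made and no p-value is given. The 12 middle sporulation markers were above background on both arrays, with a median log2 ratio of 7.28 at YPD 0 min and 6.95 in SPM. Of the 8 haploid markers 3 were above background on each array, namely FUS1, HO and STE3, and none of the 8 passed 2-fold. Among markers of budding cells, CLN1, CLN2 and CLB2 were below background at YPD 0 min.

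The largest differences between the arrays were upward. To be counted as risen or fallen, a gene had to change by at least 2-fold one way in each of its spots. By this rule 471 genes rose, which is 7.59% of the 6206 genes with both spots on both arrays, and 256 fell, which is 4.13%. Of the 12 other ORFs, 7 had 1 usable spot and 5 had none. Among the genes that rose 187 changed by 4-fold or more and 46 by 8-fold or more, against 12 and 0 among those that fell. The median change of all genes was -0.16, so a gene with no shift relative to the others lay slightly below 0. With this median set to 0, 558 genes rose and 148 fell, and rises made up 79.0% of the calls in place of 64.8%.

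Many of these changes were measured on 1 side only. Of the 471 genes that rose, 175 were above background in the sample channel on both arrays, 238 at YPD 0 min only and 58 on neither. Of the 256 that fell, 138 were above background on both arrays, 82 in SPM only and 36 on neither. Where only 1 side was above background, the fold is given as "at least". The dim side was put at the higher of its own value and the lowest value above background. This bound is therefore not a strict limit. Such a bound comes from the sample channel alone and can pass the fold of the ratio, and where it did the change of the ratio is given in its place. The falls depended on how the arrays were normalized: print-tip loess, which fits each of the 48 printed blocks alone, gave 289 falls, of which 132 were among the 256. It gave 437 rises, of which 380 were among the 471.

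**Figure D1:**
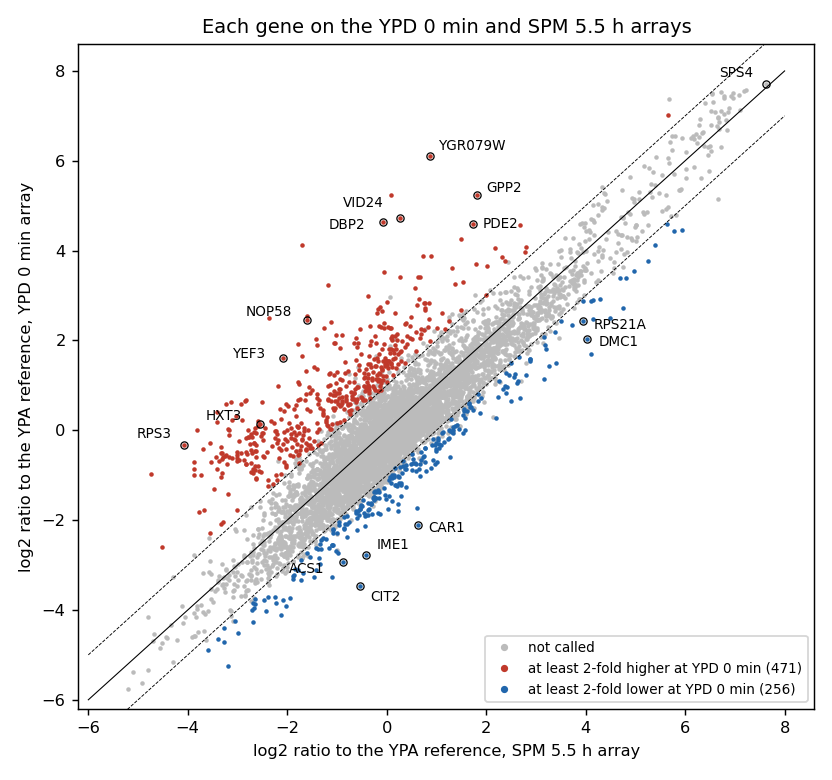
Each point is a gene, with its log2 ratio to the YPA reference on the YPD 0 min array (y axis) and on the SPM 5.5 h array (x axis), both as the mean of 2 spots. The solid line marks equal values and the dashed lines 2-fold, and the 471 rises (red) reach farther from the line than the 256 falls (blue).

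The largest rise among genes above background on both arrays was that of YGR079W, an ORF without an assigned function here. Its log2 ratio was 6.12 ± 0.11 at YPD 0 min and 0.86 ± 0.13 in SPM, a change of 5.25 ± 0.02. Its reference channel was not above background at YPD 0 min, and the sample channel alone changed by 5.16. DBP2, a DEAD-box RNA helicase, had log2 ratios of 4.63 ± 0.16 at YPD 0 min and -0.08 ± 0.05 in SPM, a 26.2-fold difference. VID24, which recruits fructose-1,6-bisphosphatase and other gluconeogenic enzymes for degradation in glucose, had 4.73 ± 0.12 at YPD 0 min and 0.27 ± 0.00 in SPM, a 21.9-fold difference. In these genes the distance between the arrays was many times the difference between spots.

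GPP2, a glycerol-1-phosphatase, had log2 ratios of 5.24 ± 0.04 at YPD 0 min and 1.81 ± 0.13 in SPM. ARB1, an ABC ATPase of ribosome assembly, had 2.13 ± 0.07 at YPD 0 min and -0.90 ± 0.07 in SPM. The changes of GPP2 and ARB1 were 3.42 and 3.03 on the log2 scale. The 15 largest such rises also held NOP58, NOP56, CBF5, YEF3, RPS1B, RPS12, RPL28 and the ORFs YOR309C and YGL102C, described below with their groups. The remaining rise was that of RHO4, with log2 ratios of 0.63 ± 0.10 at YPD 0 min and -3.14 ± 0.09 in SPM.

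Where the SPM side was not above background, the largest bounds belonged to YGR160W and GUA1. YGR160W was at least 18.9-fold higher at YPD 0 min. GUA1, GMP synthetase, was at least 15.3-fold higher, with measured log2 ratios of 2.50 ± 0.03 at YPD 0 min and -2.37 ± 0.13 in SPM. IFH1, a coactivator of ribosomal protein genes, followed at 12.6-fold and NOP1, the box C/D methyltransferase fibrillarin, at 11.5-fold. AQR1, an exporter of drugs and amino acids, was at least 9.32-fold higher, and the ribosomal protein genes RPS3, RPL27A, RPS9B and RPL27B were at least 8.44-fold to 11.1-fold higher. RPS2 changed by 3.26 ± 0.26 in the ratio, with its SPM side below background.

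Among genes of the nucleolus and of ribosome assembly, the measured core proteins of the guide RNA particles all rose and the other lists rose in part. Box C/D and H/ACA particles guide the methylation and pseudouridylation of rRNA, and all 7 of their core proteins measured, of 8 in the list, rose, with a median change of 3.14 against -0.16 over all genes. Among the box C/D proteins, NOP58 had log2 ratios of 2.47 ± 0.20 at YPD 0 min and -1.59 ± 0.45 in SPM. NOP56, its partner, had 2.12 ± 0.01 at YPD 0 min and -1.01 ± 0.01 in SPM. SNU13, which binds the kink-turn of the guide RNA, had 3.87 ± 0.09 at YPD 0 min and 0.89 ± 0.04 in SPM. These genes were 16.7-fold, 8.79-fold and 7.92-fold higher at YPD 0 min.

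Of the H/ACA proteins, CBF5, the pseudouridine synthase, had log2 ratios of 1.93 ± 0.10 at YPD 0 min and -1.79 ± 0.22 in SPM, a change of 3.71. NHP2 changed by 2.27 ± 0.22, with its SPM side below background. GAR1 changed by 1.44 ± 0.36 but was above background on neither array, so no fold is given. The median log2 ratio of the 7 genes was -1.01 in SPM, 2.47 at 0 min, 2.74 at 20 min and 2.67 at 40 min, so at 0 min it stood close to its later values.

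Factors that process the small-subunit rRNA rose in 27 of 58 genes (46.6%) with a median change of 1.05, and 1, UTP22, was 2-fold lower with neither side above background. NSR1, a nucleolin-like protein, had log2 ratios of 3.42 ± 0.12 at YPD 0 min and 0.63 ± 0.14 in SPM. UTP9 and UTP11, subunits of the small-subunit processome, were at least 2.08-fold and 2.62-fold higher. Large-subunit assembly factors rose in 31 of 69 genes (44.9%) with a median change of 1.11, and none fell. Besides DBP2 these included MAK16 and BRX1, at least 2.03-fold and 2.17-fold higher at YPD 0 min with measured changes of 3.46 ± 0.33 and 3.01 ± 0.29. The bounds of these factors were far below their measured changes because their SPM signals lay below background.

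RNA polymerase I and III subunits rose in 6 of 20 genes (30.0%), with a median change of 0.67. RPA34 was at least 3.38-fold higher and RPA49 at least 1.02-fold higher at YPD 0 min, both subunits of RNA polymerase I. RPA14 changed by 1.85 ± 0.24, but its bound was under 1. With dim sides at their bounds, the median change was 0.71 for small-subunit factors, 0.64 for large-subunit factors and 0.18 for polymerase subunits, over the 36, 51 and 11 genes with a side above background.

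Ribosomal protein genes made up the largest group of rises. Of 132 measured, 113 rose (85.6%, against 7.59% of all genes) and 2 fell, and the median change was 2.24. The median change was 2.08 for the 55 small-subunit genes and 2.33 for the 77 genes of the large subunit and its stalk. RPS3 had log2 ratios of -0.32 ± 0.06 at YPD 0 min and -4.08 ± 0.01 in SPM. RPS12 had 0.33 ± 0.06 at YPD 0 min and -3.04 ± 0.11 in SPM. RPL28 had 0.67 ± 0.08 at YPD 0 min and -2.82 ± 0.01 in SPM. RPL7B, the member with the largest measured change, was at least 7.82-fold higher, with log2 ratios of 0.40 ± 0.02 at YPD 0 min and -3.42 ± 0.19 in SPM. The change of RPS1B, 3.78 ± 1.80, rested on SPM spots that differed widely.

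At YPD 0 min most ribosomal protein genes were still below their later levels. Their median log2 ratio was -2.61 in SPM, -0.21 at 0 min and 1.40 at 20 min, and reached 1.80 at 40 min. In 125 of the 132 genes the 0 min value was the lowest of the 3 YPD arrays, against 42 of 58 small-subunit factors and 3 of 7 snoRNP core proteins. RPL27A, for example, had log2 ratios of -3.23 in SPM, 0.58 at 0 min, 2.03 at 20 min and 1.92 at 40 min.

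**Figure D2:**
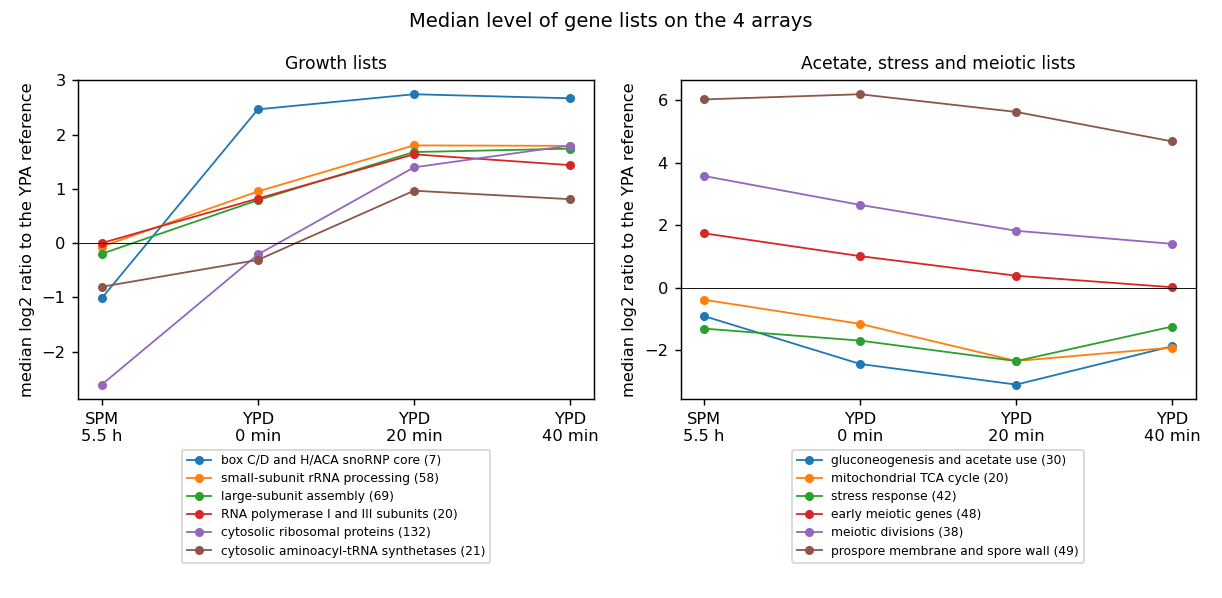
Median log2 ratio to the YPA reference (y axis) of 12 gene lists on the 4 arrays (x axis), with the number of genes in brackets and no error bars because each group is 1 array. The snoRNP core proteins stood at 2.47 at 0 min and 2.74 at 20 min, whereas the ribosomal protein genes stood at -0.21 and 1.40.

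Most yeast ribosomal proteins are encoded by paired gene copies, and probes made from whole ORFs can share signal between near-identical copies. Of 55 pairs with both copies measured, both rose in 41, 1 copy rose in 12 and neither in 2. The median gap between the copies was 0.65 on the log2 scale. RPL8A changed by 3.51 and RPL8B by -0.43, RPS9A by -0.06 and RPS9B by 3.81, and RPS19A by -0.30 and RPS19B by 2.43. The 2 copies that fell were RPL43B and RPS21A. RPL43B was at least 1.67-fold lower at YPD 0 min, while RPL43A changed by 2.54.

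RPS21A had log2 ratios of 2.42 ± 0.07 at YPD 0 min and 3.95 ± 0.25 in SPM, a fall of 1.53 ± 0.18, with its reference channel below background on both arrays. RPS21B changed by 1.60. The level of RPS21A in SPM was thus far above the median of -2.49 for small-subunit genes. Whether these spots carry the product named was not tested.

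**Figure D3:**
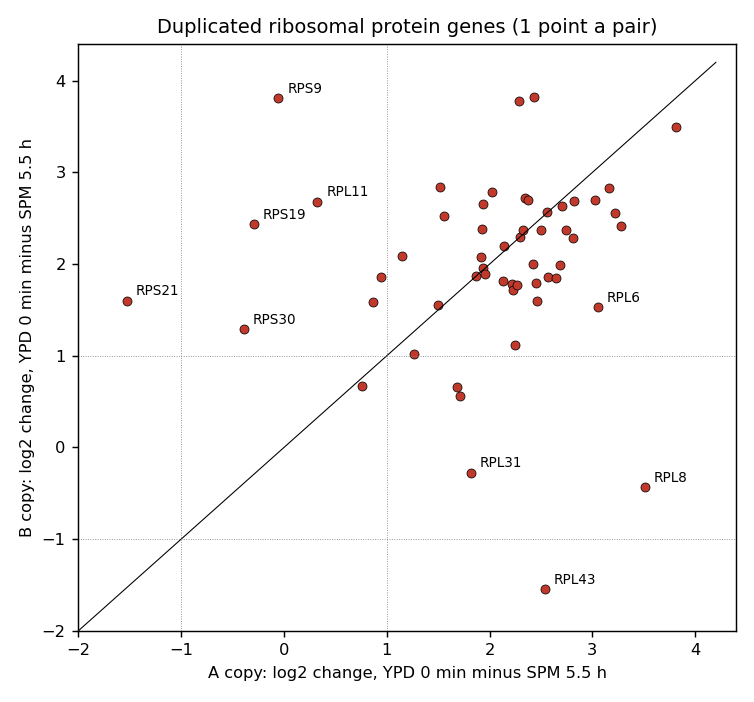
Each point is a pair of ribosomal protein genes, with the log2 change, YPD 0 min minus SPM 5.5 h, of the A copy on the x axis and of the B copy on the y axis. The solid line marks equal changes, the dotted lines mark 2-fold, and pairs with a gap over 1.5 are named. RPL43, RPL8, RPS9 and RPS21 lie farthest from the line.

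Regulators of ribosome genes divided. IFH1 had log2 ratios of 3.23 ± 0.20 at YPD 0 min and -1.18 ± 0.11 in SPM, whereas FHL1, the DNA-bound factor that recruits it, had 1.85 ± 0.01 at YPD 0 min and 2.19 ± 0.01 in SPM. SFP1, an activator of ribosome genes, had 1.25 ± 0.08 at YPD 0 min and -0.38 ± 0.16 in SPM, a 3.09-fold rise. RRN3, an initiation factor of RNA polymerase I, was at least 1.60-fold higher. MRS6, a Rab escort protein that binds Sfp1, changed by 1.38 ± 0.08, with its SPM side below background. The other 8 of the 12 genes did not pass 2-fold. Of these, the repressors TOD6, DOT6 and STB3 changed by 0.79, 0.25 and -0.48, the corepressor CRF1 by -0.37, RAP1 by -0.09, HMO1 by -0.32 and the kinase SCH9 by -0.22. The rise of MRS6 was 0.81 with print-tip loess and lost its 2-fold call.

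Translation factors rose in 11 of 38 genes (28.9%), with a median change of 0.59. YEF3, elongation factor 3, had log2 ratios of 1.61 ± 0.03 at YPD 0 min and -2.08 ± 0.19 in SPM, a 12.9-fold rise. DED1, an RNA helicase of initiation, had 0.96 ± 0.06 at YPD 0 min and -1.57 ± 0.09 in SPM. EFB1, an exchange factor of elongation, was at least 3.05-fold higher. Aminoacyl-tRNA synthetases rose in 3 of 21 genes (14.3%, beside 7.59% of all genes). KRS1 for lysine led at no less than 5.28-fold, with FRS1 for phenylalanine at 1.36 on the log2 scale. WRS1 for tryptophan was higher by no less than 1.91-fold. The nuclear transport list had 2 rises of 22 (9.09%, near the 7.59% of all genes), PSE1 and GSP1. Its median of 0.10 turned to -0.01 with print-tip loess.

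In nucleotide synthesis, 3 genes of the guanine branch were among those that rose. IMD3 and IMD4, IMP dehydrogenases, were at least 4.23-fold and 2.73-fold higher at YPD 0 min, besides GUA1. The purine list as a whole had 6 rises of 21 genes (28.6%, beside 7.59% of all genes). Its median was -0.01, and the sign of this median changed with the scaling. Among pyrimidine genes 3 of 12 rose (25%) and 1 fell (8.33%, beside 4.13% of all genes). URA7, CTP synthetase, was at least 1.80-fold higher, the uridine permease FUI1 rose by 1.48 ± 0.08 and the UMP kinase URA6 by 1.42 ± 0.03. YNK1, a nucleoside diphosphate kinase, fell by 1.76 ± 0.14.

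Most amino acid synthesis genes did not pass 2-fold, and their median change was 0.15. Of 67 genes 6 rose (8.96%) and 2 fell (2.99%), shares near the 7.59% and 4.13% of all genes. ILV2, the entry enzyme of branched-chain synthesis, rose by 2.45 ± 0.44, CPA1, a carbamoyl phosphate synthetase subunit, by 2.09 ± 0.03 and ILV1, threonine deaminase, by 1.80 ± 0.22. ARG1, argininosuccinate synthetase, was at least 1.60-fold lower at YPD 0 min, and ARO9, an aromatic aminotransferase, fell by 1.32 ± 0.05. In one-carbon metabolism SAM1, SAH1 and MIS1 rose (16.7% of 18 genes) and GCV1, of the glycine cleavage system, fell (5.56%). GCV1 lost its call with print-tip loess. SPE1, ornithine decarboxylase, was the 1 polyamine gene of 10 (10%) that passed, with a fall of 1.23 ± 0.22. Of 27 transporters of amino acids, nucleobases and drugs, 7 rose (25.9%, beside 7.59% of all genes) and none fell. Among them MMP1, the S-methylmethionine permease, rose by 2.44 ± 0.56 and BAP2, a branched-chain amino acid permease, by 2.16 ± 0.00.

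Hexose transporters differed among themselves, with 4 rises (21.1%, beside 7.59% of all genes) and no fall among 19 genes. HXT3, a low-affinity carrier, had log2 ratios of 0.14 ± 0.03 at YPD 0 min and -2.54 ± 0.04 in SPM, a 6.42-fold rise. HXT2, a high-affinity carrier, had 1.27 ± 0.15 at YPD 0 min and -0.84 ± 0.19 in SPM, and then -0.78 at 20 min and -0.95 at 40 min. HXT4 was at least 2.20-fold higher at YPD 0 min. HXT5 changed by 1.05 ± 0.04, just inside the 2-fold limit. The values of HXT1, 0.94 ± 1.01, and of HXT10, 1.69 ± 1.34, rested on spots that disagreed, and the other 13 genes, which include the galactose carrier GAL2 and the sensors SNF3 and RGT2, changed by between -1.10 (SNF3) and 0.84 (HXT6). The rise of HXT2 was 1.05 with print-tip loess and no longer passed in both spots.

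Among 29 genes of glucose signalling and repression, 4 rose (13.8%, beside 7.59% of all genes) and 2 fell (6.90%, beside 4.13%). MIG1, the glucose repressor, changed by 1.85 ± 0.66, with its SPM side below background and 0 min spots that differed (SD 0.95). MTH1, a corepressor of HXT genes, rose by 1.48 ± 0.37 and HXK2, the main glucose-phase hexokinase, was at least 1.13-fold higher. MIG2 passed 2-fold with neither side above background. HXK1 fell by 1.10 ± 0.00 in the ratio and by 0.88 in the sample channel, and SIP2, a subunit of the Snf1 kinase, was at least 1.04-fold lower. With print-tip loess 1 of the 4 rises and 1 of the 2 falls kept their calls. Among those lost, the change was 0.71 for MIG1, 0.53 for HXK2 and -0.13 for HXK1.

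The other genes of that list did not pass 2-fold, and the values of STD1, RGT1, NRG2, CAT8 and ADR1 were from spots above background on neither array. STD1, a partner of the glucose sensors, changed by 0.79 ± 0.53 and the repressor RGT1 by 0.40 ± 0.72. YCK1, SNF4, NRG1 and MIG3 were above background on 1 array. The casein kinases YCK1 and YCK2 changed by -1.0 and -0.17, and GRR1, an F-box protein, by -0.50. The kinase SNF1 changed by -0.06 and its subunits SNF4, GAL83 and SIP1 by -0.66, -0.60 and -0.13. The phosphatase GLC7 changed by 0.11, with REG1 at -0.74 and REG2 at 0.32. The corepressors TUP1 and CYC8 changed by -0.67 and -0.29, and the repressors NRG1, NRG2 and MIG3 by 0.93, 0.92 and 0.71. Among activators of acetate-phase genes SIP4, RDS2 and ERT1, which were above background on both arrays, changed by -0.77, -0.10 and 0.54. CAT8 and ADR1 had values of -0.10 and -0.64 from signal below background, so no change is read from them. GLK1, glucokinase, changed by -0.17.

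Of 22 genes of the Ras and protein kinase A pathway 3 rose (13.6%, beside 7.59% of all genes) and 1 fell (4.55%, near the background share of 4.13%). PDE2, the high-affinity cAMP phosphodiesterase, had log2 ratios of 4.59 ± 0.24 at YPD 0 min and 1.74 ± 0.25 in SPM, a 7.18-fold rise. RGS2, a negative regulator of the glucose receptor's G protein, rose by 1.63 ± 0.23, and MSN4, a stress activator that the kinase holds in check, was at least 1.64-fold higher. TPK2, a catalytic subunit, fell by 1.68 ± 0.21, and BCY1, the regulatory subunit, changed by -0.63 ± 0.08. With print-tip loess the rise of RGS2 was 0.95. Of 21 genes of glycolysis and fermentation 1 rose (4.76%, below the 7.59% of all genes), namely PDC1, pyruvate decarboxylase. PDC1 changed by 1.92 ± 0.22, with its SPM side below background. The median of that list, -0.01, changed sign with the scaling.

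Several of the steepest rises stood highest at 0 min among the YPD arrays. DBP2 had log2 ratios of -0.08 in SPM, 4.63 at 0 min, 3.15 at 20 min and 2.53 at 40 min. VID24 had 0.27, 4.73, 2.71 and 2.05 on the same arrays. PDE2 had 1.74 in SPM, 4.59 at 0 min, 2.31 at 20 min and 1.88 at 40 min, so at 40 min it was back near its SPM level. IFH1 had -1.18, 3.23, 1.81 and 1.65, and MSN4 had -2.0, -0.23, -1.59 and -2.33. These genes were named for their rise on the 0 min array, so a high value on that array was part of their choice.

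**Figure D4:**
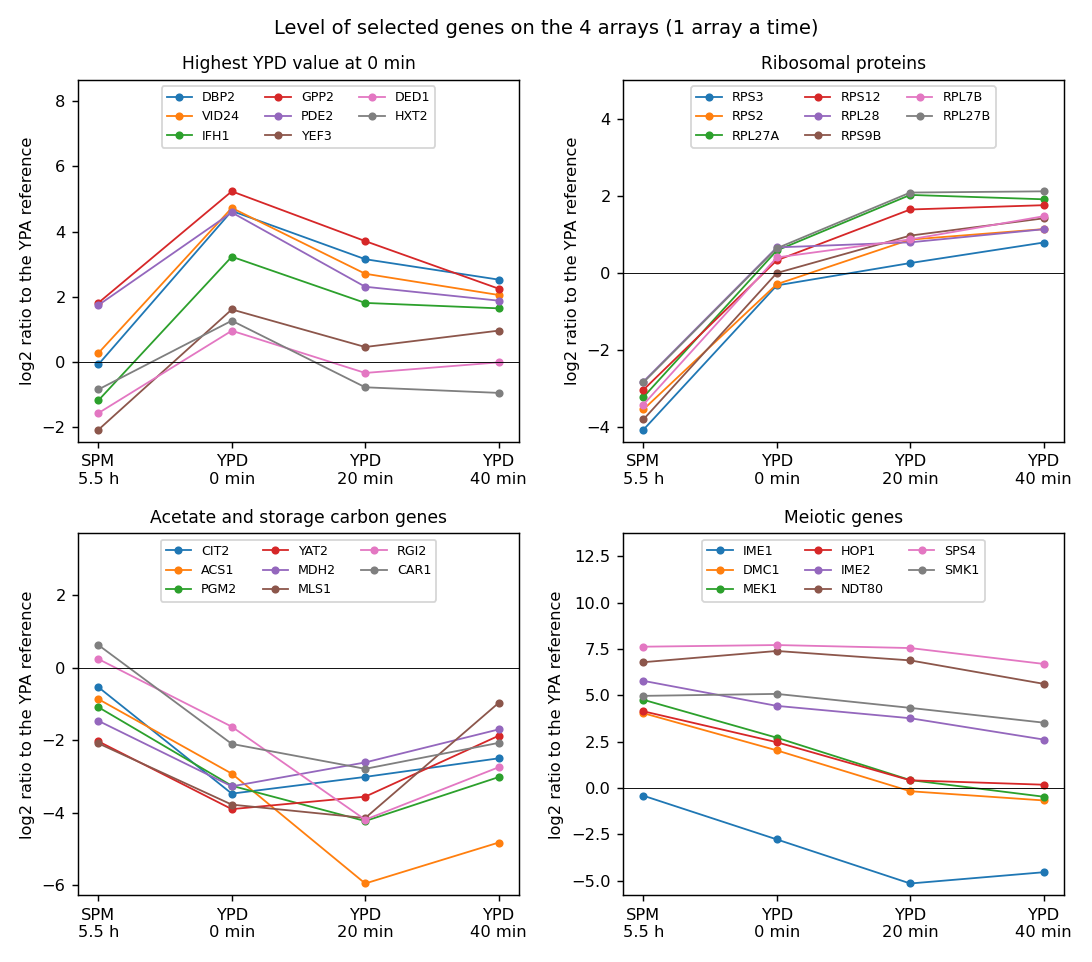
Log2 ratio to the YPA reference (y axis) of 32 genes on the 4 arrays (x axis), each point the mean of 2 spots on 1 array. DBP2 and PDE2 had 4.63 and 4.59 at 0 min and lower values later, RPS3 continued upward after -0.32 at 0 min, and NDT80 and SPS4 stayed above 5 on all 4 arrays.

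The falls were smaller than the rises. The largest among genes above background on both arrays were those of CIT2, CAR1, SPO16, IME1, PGM2, ACS1, MEK1 and MCM10, given below with their groups, and of VPS28, a subunit of the ESCRT-I sorting complex. VPS28 had log2 ratios of -1.81 ± 0.61 at YPD 0 min and 0.22 ± 0.18 in SPM, and its sample channel changed by -1.41. YPL113C had -0.60 ± 0.00 at YPD 0 min and 1.28 ± 0.02 in SPM, and YBR184W had 1.43 ± 0.15 at YPD 0 min and 3.26 ± 0.29 in SPM. With print-tip loess the change of YPL113C was -0.64.

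Where YPD 0 min was below background, the largest bound was that of ULP2, a SUMO protease, at least 3.72-fold lower than in SPM. YNL194C followed at 3.08-fold, PCD1, a nudix hydrolase of the peroxisome, at 2.57-fold and YJR096W at 2.55-fold. MTG1, a mitochondrial GTPase, changed by -1.41 ± 0.37 in the ratio. IRC8, COS8 and HSM3, a proteasome assembly chaperone, were at least 2.30-fold to 2.45-fold lower. Of these, YNL194C, YJR096W and HSM3 did not pass 2-fold in both spots with print-tip loess.

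Genes for growth on acetate gave the largest group of falls. Of 30 genes of gluconeogenesis and acetate use, 16 fell (53.3%, against 4.13% of all genes) and the median change was -1.15. The 1 rise was that of VID24, which acts against gluconeogenic enzymes. CIT2, citrate synthase of the glyoxylate cycle, had log2 ratios of -3.48 ± 0.00 at YPD 0 min and -0.54 ± 0.10 in SPM, a 7.66-fold fall. ACS1, an acetyl-CoA synthetase, had -2.93 ± 0.14 at YPD 0 min and -0.87 ± 0.02 in SPM. YAT2, a carnitine acetyltransferase, had -3.90 ± 0.03 at YPD 0 min and -2.03 ± 0.03 in SPM. MDH2, MLS1, JEN1, CAT2 and CRC1, which serve the glyoxylate cycle, lactate import and carnitine transport, fell by 1.62 to 1.81. With print-tip loess 12 genes of this list fell, 10 of them the same, and the median was -0.92.

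ACS1 was lower still later, with log2 ratios of -5.96 at 20 min and -4.83 at 40 min, whereas CIT2 had -3.02 and -2.50. FBP1, fructose-1,6-bisphosphatase, changed by -1.14 with neither side above background.

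Smaller shares of the mitochondrial and peroxisomal lists fell, beside 4.13% of all genes. Of 20 TCA cycle genes 3 fell (15%), IDH1 by 1.42 ± 0.03, SDH1 by 1.33 ± 0.29 and MDH1 by 1.30 ± 0.03. Of 34 respiratory genes 3 fell (8.82%), CYC1 (cytochrome c), ATP1 and ATP15 (subunits of ATP synthase), by 1.21 to 1.46. The medians of these lists were -0.56 and -0.58. Of 34 peroxisomal genes 5 fell (14.7%), among them PXA1, a transporter of fatty acids, by 1.40 ± 0.17, and DCI1, a dienoyl-CoA isomerase, by 1.23 ± 0.12. DCI1 lay over a reference below background on both arrays. In the sample channel DCI1 (-0.60), ATP15 (-0.64), ATP1 (-0.90) and IDH1 (-0.98) were short of 2-fold. CTA1, the peroxisomal catalase, was at least 2.09-fold lower. With print-tip loess SDH1 (-0.67), MDH1 (-0.85), CYC1 (-0.95) and ATP1 (-0.99) lost their calls.

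Among 24 genes of trehalose and glycogen 2 fell (8.33%, beside 4.13% of all genes). PGM2, phosphoglucomutase, had log2 ratios of -3.26 ± 0.10 at YPD 0 min and -1.09 ± 0.08 in SPM, a 4.50-fold fall. GIP2 was at least 1.99-fold lower. Of 42 stress genes 5 fell (11.9%, beside 4.13% of all genes), with a median of -0.54, or -0.33 with array-median normalization. With print-tip loess 2 of these 5 kept their calls. HSP42, a small heat shock protein, fell by 1.31 ± 0.13, TRX2, a thioredoxin, was at least 1.51-fold lower and PBI2, an inhibitor of vacuolar protease B, at least 1.80-fold lower. RGI2, a respiration-linked gene, fell by 1.87 ± 0.36 and RGI1, its paralogue, was at least 2.53-fold lower. In nitrogen use, CAR1, arginase, had log2 ratios of -2.11 ± 0.17 at YPD 0 min and 0.62 ± 0.10 in SPM, a 6.63-fold fall. The list of 35 nitrogen genes held 2 more falls, DAL2 and PUT1, and 1 rise, the activator GLN3 at no less than 1.41-fold. These made 8.57% falls and 2.86% rises, beside 4.13% and 7.59% of all genes. With print-tip loess 2 of the 3 falls kept their calls, and GLN3 lost its call.

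**Figure D5:**
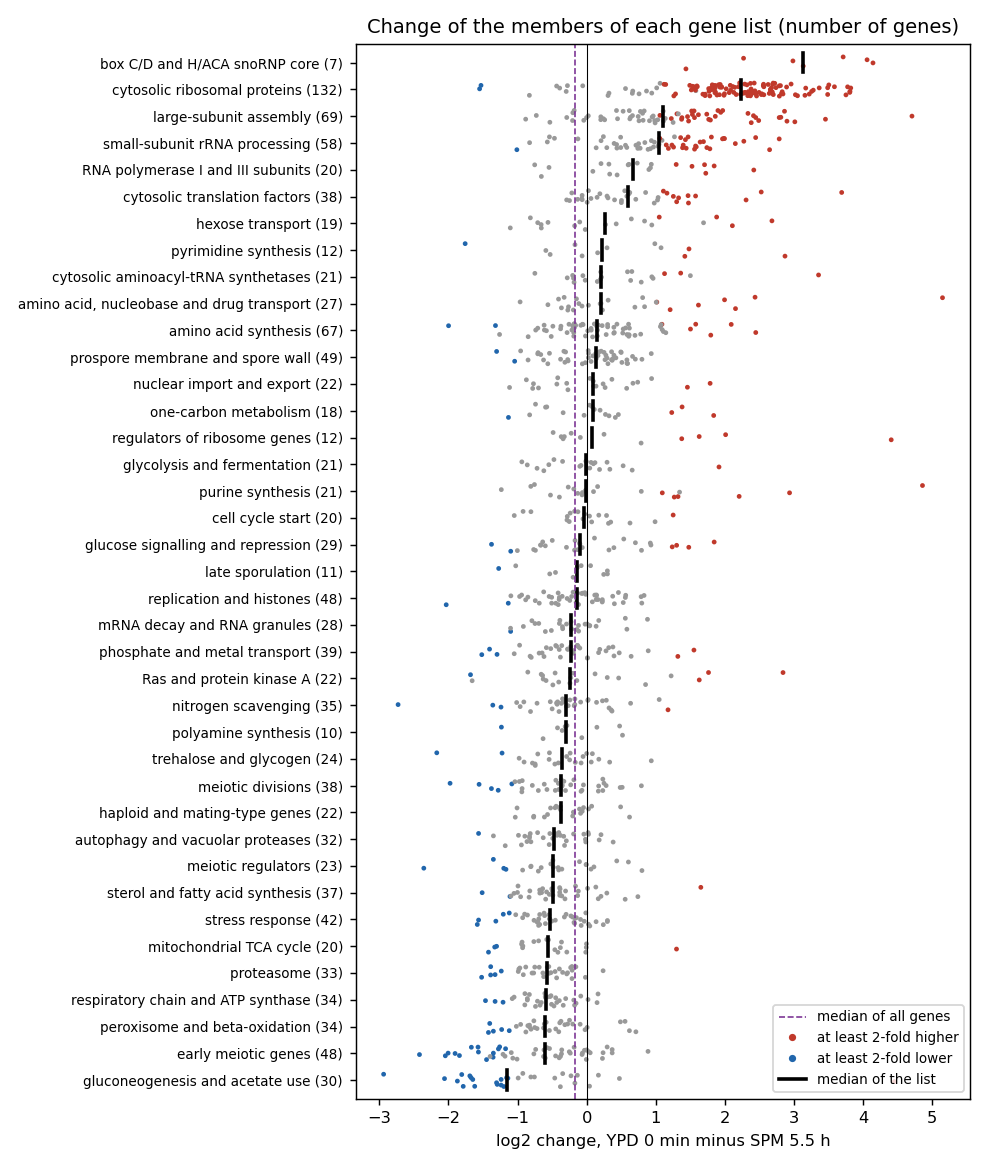
Log2 change, YPD 0 min minus SPM 5.5 h (x axis), of every member of the 39 gene lists (rows), each point a gene and each black bar the median of a list. The dashed line is the median of all genes, -0.16, and the lists at the top (snoRNP core, 3.14) and at the bottom (gluconeogenesis and acetate use, -1.15) lie farthest from it.

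Meiotic genes moved in different ways according to their stage. Of 23 meiotic regulators 4 fell (17.4%, beside 4.13% of all genes) and none rose. IME1, the master regulator of entry, had log2 ratios of -2.77 ± 0.02 at YPD 0 min and -0.41 ± 0.13 in SPM, a 5.12-fold fall. IME2, its kinase target, had 4.43 ± 0.04 at YPD 0 min and 5.78 ± 0.22 in SPM, over a reference below background on both arrays, and the sample channel changed by -1.03. IME4, an RNA methyltransferase, fell by 1.20 ± 0.14 and RPD3, a histone deacetylase, was at least 1.31-fold lower. NDT80, here under the SPS4 promoter, had 7.39 ± 0.11 at YPD 0 min and 6.79 ± 0.04 in SPM. The SPS4 gene itself had 7.71 ± 0.09 at YPD 0 min and 7.62 ± 0.07 in SPM. Both lay over a reference below background, and their sample channels changed by 0.60 and 0.55.

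The other meiotic regulators did not pass 2-fold, and RME1, RIM15, SSN8, RAS2 and SIN3 were above background on neither array. The Ume6 group of repressors changed by -0.41 (UME6), -0.80 (SIN3) and -0.70 (UME1), and the Sum1 group by 0.44 (SUM1), -0.48 (RFM1) and -0.81 (HST1). The kinases RIM11, RIM15 and MCK1 changed by -0.93, -0.40 and 0.06, and RIM101 and RIM4 by -0.49 and -0.36. RME1, a repressor of IME1, changed by -0.10, RAS2 by -0.66, the Mediator cyclin SSN8 by -0.52, and MUM2 and SLZ1, partners of Ime4, by -0.01 and -0.00. The late kinases SMK1 and SPS1 changed by 0.11 and 0.80.

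Early meiotic genes fell in 14 of 48 (29.2%, beside 4.13% of all genes), with a median change of -0.61, and none rose. DMC1, the meiotic recombinase, had log2 ratios of 2.03 ± 0.04 at YPD 0 min and 4.04 ± 0.12 in SPM. MEK1, a kinase of the chromosome axis, had 2.72 ± 0.29 at YPD 0 min and 4.76 ± 0.02 in SPM. SPO16, of the synapsis complex, fell by 2.42 ± 1.00, and its sample channel by 1.48. MND1, a partner of Dmc1, was at least 2.41-fold lower. With print-tip loess 10 members fell, 8 of them the same, and SPO16 (-1.74) was no longer past 2-fold in both spots. DMC1 continued to -0.17 at 20 min and -0.67 at 40 min.

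Of 38 genes of the meiotic divisions 5 fell (13.2%, beside 4.13% of all genes), with a median of -0.37. APC11 and APC4, subunits of the anaphase-promoting complex, fell by 1.98 ± 0.41 and 1.38 ± 0.40, and CIK1, a kinesin partner, was at least 1.99-fold lower. In contrast, among the 49 prospore membrane and spore wall genes 2 fell (4.08%, near the background share), SPO73 by 1.30 ± 0.05 and SPO77 by 1.04 ± 0.03, and the list median was 0.14. The sample channel of SPO73 changed by -0.61, with its reference below background in SPM, and that of SPO77 by -1.03, with its reference below background on both arrays. The median log2 ratio of that list was 6.02 in SPM, 6.19 at 0 min and 5.62 at 20 min, with 4.68 at 40 min. Of its genes, 45 of 49 stood highest at 0 min among the YPD arrays. In the late sporulation list 1 of 11 genes, SPG1, fell (9.09%, beside 4.13% of all genes).

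Of 20 genes of the cell cycle start 1 rose (5.0%, below the 7.59% of all genes) and none fell. The rise was that of CLN3, the cyclin that couples growth to division. CLN3 was at least 1.15-fold higher, with log2 ratios of -1.76 ± 0.05 at YPD 0 min and -3.02 ± 0.26 in SPM. The activators SWI4, SWI6 and MBP1 changed by -0.92, -0.05 and 0.63, and the inhibitor WHI5, above background at YPD 0 min only, by 0.04. The inhibitors SIC1 and FAR1 were above background on neither array, as were CLN1 and CLN2, and no change is read from them. CDC28, the cyclin-dependent kinase, changed by -1.05 ± 0.29 without passing in both spots. The other 10 genes of the list changed by between -0.81 (STB1) and 0.99 (PCL2), and the spots of PCL2 disagreed. Of 48 replication and histone genes 2 fell (4.17%, near the 4.13% of all genes) and none rose. With print-tip loess 1 of these 2 kept its call. RFA1, a subunit of replication protein A, was at least 2.12-fold lower. MCM10, a replication initiation factor, fell by 2.03 ± 0.75 in the ratio but by 0.20 in the sample channel, with the reference below background on both arrays. None of the 22 haploid and mating-type genes passed 2-fold in both spots, but only 8 of them were above background on at least 1 array. No change is read from the others. The changes ran from -1.03 for STE18, a G protein subunit, to 0.62 for HO, the mating-type endonuclease. FLO11 and MSB2, a flocculin and a mucin of the cell surface, changed by 0.38 ± 0.03 and 0.96 ± 0.11 with neither side above background.

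Among ORFs without a gene in the RefSeq annotation, those that rose often had a risen neighbour. The probes are double-stranded products of ORFs, so signal from overlapping genes on either strand cannot be told apart. Of 515 such ORFs with both spots and a systematic number, 32 rose (6.21%, below the 7.59% of all genes). In 19 of these 32 a gene numbered next to the ORF had also risen. Among the 436 genes in the annotation that rose, 96 had a risen neighbour, which is 22% against 59.4% of the 32. YGR160W, next to NSR1, changed by 5.83 ± 0.34, YOR309C, next to NOP58, by 3.54 ± 0.04, and YGL102C, next to RPL28, by 3.13 ± 0.13. Of the 13 that fell (2.52%, below the 4.13% of all genes), none had a fallen neighbour.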

How the data were processed

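Total RNA was reverse transcribed by the authors, labelled (Cy5 for the sample, Cy3 for the YPA reference) and hybridised to ORF arrays. The deposited scanner files hold spot and background intensity values on a linear scale. The deposited value table holds the authors' log2 ratios, made by background subtraction, a floor at the buffer spots and median centring. The labelling text names the dyes in the opposite order to the dye fields. The authors' steps, repeated here, gave ratios of the same sign as the table, with Pearson's r of 0.995 (YPD 0 min, 5486 genes) and 0.996 (SPM, 5496 genes). The source names round the 5.5 h down.

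With limma 3.58.1 (R 4.3.3), normexp was applied to the background with an offset of 50, and each array was then normalized by global loess and centred on the gene spots. Spots with an ignore flag (17 at 0 min) were left out. Bounds used sample-channel values after loess and Aquantile, with a dim side at the higher of its own value and the lowest value above background. Symbols came from RefSeq, assembly R64 (5663 of 6218 ORFs matched). The members, the 39 gene lists and the naming rule were chosen with earlier results of these data known. The lists hold 1254 genes, and were mended after the values were seen, by correcting spellings and dropping ISC1 and CRZ1, put in the spore wall list in error. Named were the 15 largest rises and falls above background on both arrays, the 10 largest by bound, up to 3 members a list in each direction, and all members of 7 lists. The scripts were tested on simulated data. The number of arrays limits the precision. Other normalizations, filters and thresholds were tried as alternatives. Some genes that the naming rule chose are not reported here. No promoter or protein sequence is shown.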

Additional observations from a re-analysis of the deposited data

How the results depend on the processing

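The count of 471 rises and 256 falls changed by over 1.5 times under these settings. Genes above background in both channels on both arrays gave 164 rises and 115 falls, and dim sides at their bounds gave 298 and 117. A 1.5-fold limit gave 763 rises and 923 falls, and a 3-fold limit 258 and 30. Falls numbered 166 with array-median normalization, 148 with the median change set to 0, 507 with the first spot alone and 490 with the second. Array-median normalization gave 541 rises, which made up 76.5% of the calls. Of 145 named genes past 2-fold, 92 kept their call under each of 5 other scalings that gave them a value, 53 lost it under at least 1 and none changed direction. Calls were lost most often with print-tip loess (32 genes), and not all of these losses are named above. Blocks of the array had median changes from -0.52 to 0.10. No list with a median beyond 1 in size changed direction. No paired analysis was possible because each group has 1 array. Dim spots limited the folds: of 727 calls, 94 were above background on neither array.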

Other observations

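Outside the main groups, further named lists held small numbers of changes. Of 33 proteasome genes 5 fell at YPD 0 min (15.2%, beside 4.13% of all genes). The falls were led by the lid subunits RPN6 (-1.52 ± 0.11) and RPN3 (-1.39 ± 0.10). With print-tip loess 3 of the 5 kept their calls. Of the 33 genes 32 had a negative change, with a median of -0.57. Of 39 genes of phosphate and metal transport 2 rose (5.13%, below the 7.59% of all genes) and 3 fell (7.69%, beside 4.13% of all genes). PHO84, a phosphate transporter, rose by 1.55 ± 0.19, the copper transporters CTR1 and CTR3 fell by 1.52 ± 0.22 and 1.30 ± 0.04 (CTR1 by 3.43 in the sample channel), and PHO2, an activator of phosphate genes, fell by 1.40 ± 0.27. Of 37 genes of sterol and fatty acid synthesis 1 rose (2.70%, below the 7.59% of all genes) and 2 fell (5.41%, beside 4.13%). FAS1, fatty acid synthase, changed by 1.65 ± 0.12 with a bound under 1. INO1, inositol phosphate synthase, fell by 1.51 ± 0.13 and ERG12, mevalonate kinase, was at least 1.48-fold lower. With print-tip loess the change of INO1 was -0.32, and neither INO1 nor ERG12 kept its call. In the autophagy list 1 of 32 genes fell (3.1%), and in the mRNA decay list 1 of 28 (3.6%), both below the 4.13% of all genes.

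The following genes lie outside the naming rule and were chosen after their values were seen. GPD1 and GPP1, glycerol-3-phosphate dehydrogenase and a glycerol-1-phosphatase, act in glycerol synthesis with GPP2. GPD1 had log2 ratios of -0.96 in SPM, 0.92 at 0 min, -1.86 at 20 min and -1.52 at 40 min. GPP1 had 1.49, 4.25, 3.75 and 2.75. The chaperone genes SSB2, of the ribosome, and YDJ1, an Hsp40, rose by 2.46 ± 0.20 and 2.46 ± 0.13. ERO1, a thiol oxidase of the endoplasmic reticulum, had 2.19 in SPM, 4.06 at 0 min, 2.25 at 20 min and 1.01 at 40 min. ROX3, a Mediator subunit, had 0.67, 3.42, 1.31 and 1.01. SUC2, invertase, fell by 1.35 ± 0.19 and POR1, the mitochondrial porin, by 1.46 ± 0.22.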
